A study of Mus musculus with 13 samples.

Results

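The respiratory chain of the inner mitochondrial membrane passes electrons from NADH and succinate to oxygen and pumps protons as it does so. Complex I (NADH dehydrogenase, Nduf genes) and complex II (succinate dehydrogenase, Sdh genes) feed electrons to complex III (cytochrome bc1, Uqcr genes), and complex IV (cytochrome c oxidase, Cox genes) hands them to oxygen. Most subunits are encoded in the nucleus and imported, and several subunits of complex IV exist as a general form and a form of heart, muscle, lung or testis. The nuclear genes described here were the rows of the gene table whose symbols begin with Nduf followed by a, b, c, s or v and a number, with Uqcr, or with Cox4 to Cox8, and the 4 Sdh genes. The rule took 68 of the 23217 rows: 37 of complex I, 4 of complex II, 8 of complex III and 19 of complex IV.

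The samples were 10 xHomo and 3 xHet mouse embryos, collected at embryonic day 9.5 from the C57BL/6J strain, in a study of Tet1, which oxidizes 5-methylcytosine, in imprint erasure. The labels do not spell out xHomo or xHet. From what is known of the study, their fathers were homozygous or heterozygous for a Tet1 mutation, which the labels do not state. No litter, batch, sex or further allele or treatment is labelled, so p-values measure only the spread between these samples. Polyadenylated RNA was measured as FPKM, in which a gene's fragments are divided by its transcript length and by the library's mapped fragments, and the sequencing depth of each library is unknown. In whole embryos, fewer cells of a type and less RNA per cell cannot be told apart.

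Markers of several embryonic tissues were present. Myh6, a heart myosin, had 15.55 to 38.32 FPKM in xHomo and 31.25 to 33.19 FPKM in xHet embryos, and Hbb-y, an embryonic globin, had 1940 to 5866 FPKM in xHomo and 3785 to 3933 FPKM in xHet embryos. Of 8 markers of placenta and decidua, 1 passed the filter of a mean of 1 FPKM. Embryo xHomo 3 stood apart: the median tested gene was 0.27 log2 units below the xHet mean there, and 9.71% of genes lay at least 1 log2 unit below it, against at most 1.53% in any other embryo. Xist, transcribed from the inactive X, had 30.5 to 158.8 FPKM in xHomo 2, 3, 7, 9 and 10 and at most 0.1 FPKM in the other 8 embryos, which include all 3 xHet embryos.

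Transcripts of the chain were abundant in both groups. Summed over the 65 rows that passed the filter, they held 7243 to 9048 FPKM in xHomo embryos and 6928 to 8098 FPKM in xHet embryos, which was 1.31% to 1.78% of all summed FPKM in xHomo and 1.27% to 1.42% in xHet embryos. By complex, the sums averaged 3476 ± 304 FPKM in xHomo and 2950 ± 262 in xHet embryos for complex I, and 321 ± 21.4 in xHomo and 282 ± 25.5 in xHet embryos for complex II. The sums were 1206 ± 117 FPKM in xHomo and 1051 ± 91.8 in xHet embryos for complex III, and 3351 ± 231 in xHomo and 3044 ± 290 in xHet embryos for complex IV (SD, n = 10 and 3). Grouped by symbol, the 16 tested rows of complex IV thus held slightly less than the 37 of complex I in xHomo embryos and slightly more in xHet embryos, on average. The groups overlapped in each of these sums.

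Within complex IV, Cox4i1, the general form of the largest nuclear subunit, was highest at 529 ± 49.4 FPKM in xHomo and 492 ± 60.6 FPKM in xHet embryos. Cox7c, a small membrane subunit, averaged 476 ± 62.3 FPKM in xHomo and 399 ± 42.8 FPKM in xHet embryos. Cox6a1, the general form of a regulatory subunit, averaged 416 ± 52.2 FPKM in xHomo and 432 ± 54.0 FPKM in xHet embryos, so Cox7c was second in xHomo embryos and Cox6a1 in xHet embryos. In complex I the highest row was Ndufa4, with 384 ± 42.4 FPKM in xHomo and 352 ± 54.0 FPKM in xHet embryos. Ndufa4 was named as a complex I subunit and was later assigned to complex IV, so the symbols and the complexes do not match throughout. Its FPKM are counted in the complex I sums above. The order of the complex I and complex IV sums in xHomo embryos depends on that placement.

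The 7 nuclear core subunits of complex I, which carry the flavin and the iron-sulfur clusters, sat lower than many of the small accessory ones. Ndufs8 averaged 36.5 ± 3.69 FPKM in xHomo and 32.95 ± 3.93 FPKM in xHet embryos, and Ndufs3 averaged 76.2 ± 10.4 FPKM in xHomo and 63.5 ± 4.83 FPKM in xHet embryos. Among accessory subunits, Ndufa7 averaged 181 ± 36.0 FPKM in xHomo and 143 ± 11.6 FPKM in xHet embryos. Ndufa11, an accessory subunit of the membrane arm, was lower, with 13.4 ± 1.44 FPKM in xHomo and 11.3 ± 0.565 FPKM in xHet embryos. The 4 subunits of complex II, which also serves the citric acid cycle, lay close together. Their means ran from 68.9 ± 6.49 FPKM in xHomo and 61.0 ± 3.92 FPKM in xHet embryos for the iron-sulfur subunit Sdhb to 93.4 ± 8.65 FPKM in xHomo and 78.8 ± 9.33 FPKM in xHet embryos for the membrane anchor Sdhc. In complex III the hinge protein Uqcrh was highest, with 263 ± 39.8 FPKM in xHomo and 224 ± 25.3 FPKM in xHet embryos. The Rieske iron-sulfur protein Uqcrfs1 was lowest, with 69.6 ± 7.11 FPKM in xHomo and 55.8 ± 1.24 FPKM in xHet embryos.

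**Figure D1:**
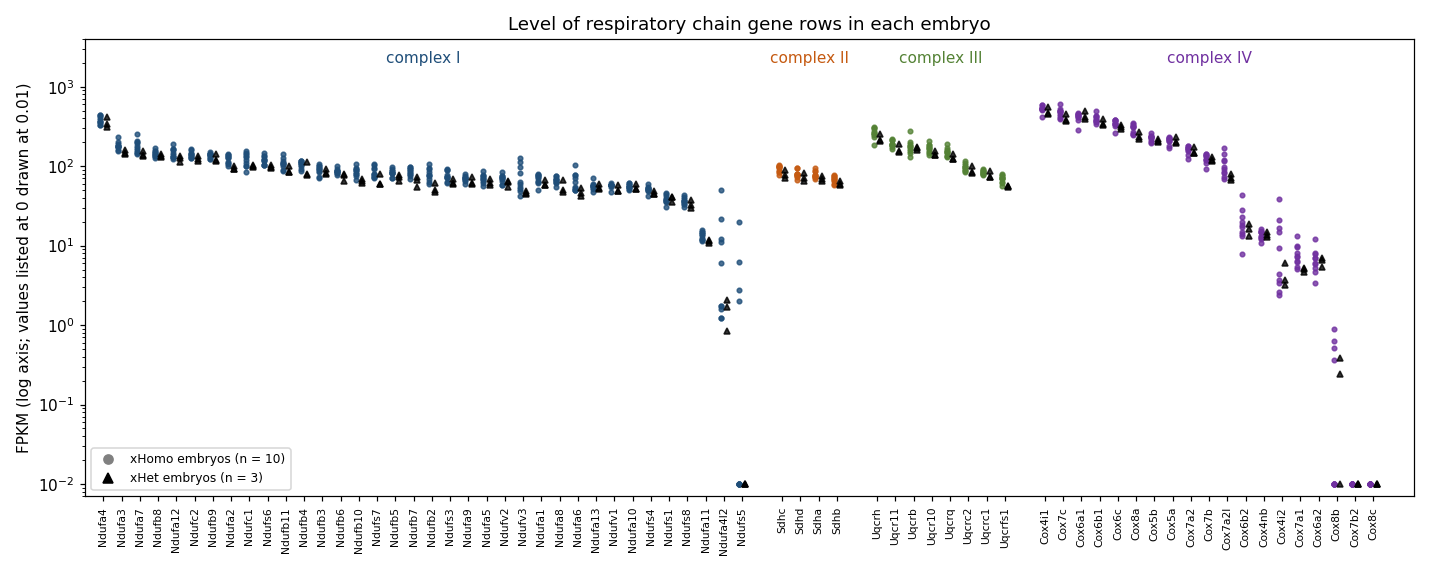
FPKM on a log axis of the chain rows, by complex, with 1 point per xHomo or xHet embryo, values listed at 0 drawn at 0.01, and 1 row not drawn. In most rows the groups overlap over a narrow range, while Ndufa4l2, Cox4i2 and Ndufs5 spread widely among xHomo embryos.

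The Cox forms of other tissues had lower values than their general partners, or were listed at 0. Cox7b2 and Cox8c were listed at 0 in all 13 embryos, and a 0 in this table can be a failed estimate. Cox8b, a heart and muscle form, had a median of 0 and at most 0.89 FPKM in xHomo embryos and 0.24, 0 and 0.39 FPKM in xHet 1, 2 and 3. These 3 rows were not tested. Cox6a2, the heart and muscle partner of Cox6a1, made up 0.993% to 3.14% of that pair's FPKM in xHomo and 1.32% to 1.65% in xHet embryos. Its locus in the table spans 2 other genes, 4931431B13Rik and Itgad, so its reads are less certain. Cox7a1, the heart and muscle partner of Cox7a2, made up 2.95% to 7.28% of its pair in xHomo and 2.56% to 3.40% in xHet embryos. Cox6b2, known from testis, made up 2.09% to 10.1% of the pair with Cox6b1 in xHomo and 3.75% to 5.34% in xHet embryos.

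A few rows need their identity stated. Cox4nb is an older symbol of Emc8, of an endoplasmic reticulum membrane complex beside Cox4i1, and is no subunit. It averaged 13.8 ± 1.67 FPKM in xHomo and 13.8 ± 1.10 FPKM in xHet embryos. Ndufa4l2 is a paralogue of Ndufa4 known as a target of hypoxia inducible factor. Cox7a2l is known for joining complexes III and IV into supercomplexes, and whether it does so in this strain was not measured. The rule misses the subunits Cyc1 of complex III and Ndufab1 of complex I. Cyc1 averaged 117 ± 9.69 FPKM in xHomo and 125 ± 16.3 FPKM in xHet embryos, and Ndufab1 averaged 68.8 ± 5.46 FPKM in xHomo and 64.8 ± 2.82 FPKM in xHet embryos. The 13 protein genes of mitochondrial DNA were looked up by symbol, and 0 were in the gene table, so they were not analysed.

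Between the groups, the chain rows leaned towards higher values in xHomo embryos by a small amount, and no row passed the test. On log2(FPKM+1), 62 of the 65 tested rows were higher in xHomo embryos and 3 were lower, while 59.7% of all 12755 tested genes were higher. The 62 include Ndufs5, which was listed at 0 in 9 embryos and passed the filter through 4 xHomo embryos, and without it 61 of 64 were higher. The median log2 change was 0.20 over the chain rows, against 0.05 over all tested genes. With limma and Benjamini-Hochberg adjustment at 0.05, 0 of 65 chain rows were called higher, against a background of 0.0235% (3 genes), and 0 were called lower, against 0.0%. At an unadjusted p under 0.05, 17 chain rows (26.2%) were higher, against a background of 7.63%, and 0 were lower, against 1.72%. The groups did not overlap in 1 row (1.54%), Uqcrfs1, where xHomo embryos were higher, against a background of 1.66%, and in 0 rows where they were lower, against 0.58%. A two-sided exact permutation test over samples, in which 286 arrangements allow a smallest p of 0.0035, passed 0 genes after adjustment. It gave an unadjusted p under 0.05 to 18 chain rows (27.7%) and to 9.38% of all tested genes.

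The size of the lean depended on how the table was scaled, and the calls on the weight of single embryos. TPM rescaling brought the median of the chain rows to 0.12, with 56 higher, and that of all tested genes to -0.02. Quantile normalization brought the chain median to 0.09, with 52 rows higher and 13 lower, and left 0 rows called. Weighting embryos by their fit to the group means called 36 of the 65 rows, all higher, where it called 18.6% of all tested genes higher. The weights ran from 0.104 for xHomo 3 to 3.69 for xHet 2. They were 2.90 for xHomo 10, 2.77 for xHet 3 and 1.30 for xHet 1. The chain median was 0.22 with these weights, close to the 0.20 without weights. Leaving out xHomo 3, without weights, called 0 rows.

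By complex the median log2 change was 0.22 in complex I, 0.17 in complex II, 0.22 in complex III and 0.13 in complex IV. The value of complex IV was 0.20 without xHet 1 and 0.07 without xHet 2, and 0.08 with an Xist covariate. TPM rescaling gave 0.09 in complex II, 0.14 in complex III and 0.06 in complex IV. Quantile normalization gave 0.14, 0.06, 0.08 and 0.02 in complexes I to IV. In complex I, 36 of 37 rows were higher in xHomo embryos, Ndufs5 included, and the exception was the core subunit Ndufs1 at -0.01. The 7 core subunits had a median of 0.14 and the other 30 rows of complex I a median of 0.25. All 4 rows of complex II and all 8 rows of complex III were higher. Complex IV held the other 2 rows that were lower, Cox4nb at -0.01 and Cox6a1 at -0.06. The value of Cox6a1 turned to 0.06 with array weights.

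Ndufb2, a small accessory subunit of the membrane arm of complex I at chr6:39542582-39549470 (mm9), had the smallest p among the chain rows. It had 60.1 FPKM in the lowest, 77.0 at the median and 106 FPKM in the highest xHomo embryo, against 61.37, 50.01 and 47.31 FPKM in xHet 1, 2 and 3. Only xHomo 2 lay below the highest xHet embryo, so the groups overlapped by 1 embryo. The log2 change was 0.57 ± 0.15 (SE), with a limma adjusted p of 0.447. Ndufa2, another accessory subunit (chr18:36894724-36904202), had 101, 127.9 and 144 FPKM in the lowest, median and highest xHomo embryo, against 102, 91.7 and 90.8 FPKM in xHet 1, 2 and 3. Its log2 change was 0.38 ± 0.11, with a limma adjusted p of 0.479, and its locus also covers Tmco6. Only xHomo 4 fell within the xHet range.

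Uqcrfs1 (chr13:30632181-30637185), whose cluster takes electrons from ubiquinol, had 57.0, 70.4 and 78.8 FPKM in the lowest, median and highest xHomo embryo. The xHet embryos had 56.8, 54.4 and 56.3 FPKM. All 10 xHomo embryos were above the 3 xHet embryos, the closest pair by under 1 FPKM. The log2 change was 0.31 ± 0.10 with a limma adjusted p of 0.481. Uqcr11, a small subunit of the same complex, differed by 0.21 ± 0.10 with a limma adjusted p of 0.544. Sdhc (chr1:173059288-173080734) had 78.4, 97.3 and 102 FPKM in the lowest, median and highest xHomo embryo, against 89.1, 76.5 and 70.9 FPKM in xHet 1, 2 and 3. It differed by 0.24 ± 0.10 with a limma adjusted p of 0.518, and 3 of the 10 xHomo embryos were below the highest xHet embryo.

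Other rows of complex I differed by varying amounts, and none passed the test. In the peripheral arm, the core subunit Ndufs7, which carries the last iron-sulfur cluster, averaged 85.4 ± 12.9 FPKM in xHomo and 65.9 ± 11.2 FPKM in xHet embryos, and 6 of 10 xHomo embryos were above all xHet embryos. Ndufs1, the largest subunit, averaged 38.7 ± 4.63 FPKM in xHomo and 38.9 ± 3.41 FPKM in xHet embryos, and Ndufv1 averaged 56.9 ± 3.56 FPKM in xHomo and 51.9 ± 5.34 FPKM in xHet embryos. Among accessory subunits of that arm, Ndufs6 averaged 120 ± 14.4 FPKM in xHomo and 98.4 ± 5.0 FPKM in xHet embryos, and Ndufs4, whose loss in mice models Leigh syndrome, averaged 51.4 ± 4.73 FPKM in xHomo and 46.1 ± 2.33 FPKM in xHet embryos. The log2 changes of these subunits were 0.37, -0.01, 0.13, 0.27 and 0.15 in that order, with SEs of 0.08 to 0.14.

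In the membrane arm, Ndufb7 and Ndufb10 each had 9 of 10 xHomo embryos above all xHet embryos. Ndufb7 averaged 85.3 ± 9.67 FPKM in xHomo and 65.2 ± 9.20 FPKM in xHet embryos, and Ndufb10 averaged 85.8 ± 11.4 FPKM in xHomo and 65.3 ± 4.35 FPKM in xHet embryos. Both differed by 0.38 ± 0.12 on the log2 scale with a limma adjusted p of 0.481. Ndufb8, a membrane arm subunit often used as a protein marker of assembled complex I, differed less, with 145 ± 12.2 FPKM in xHomo and 135 ± 6.16 FPKM in xHet embryos. Ndufb3 averaged 89.8 ± 11.6 FPKM in xHomo and 84.3 ± 6.75 FPKM in xHet embryos, a log2 change of 0.08 ± 0.12. Of the X-linked rows, the complex I subunit Ndufb11 differed by 0.28 ± 0.13, Ndufa1 by 0.16 ± 0.12 and the complex IV subunit Cox7b by 0.03 ± 0.12, and the value of Cox7b was -0.04 after TPM rescaling or quantile normalization.

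In complex III, the core proteins Uqcrc1 and Uqcrc2, which resemble processing peptidases, lay close together. Uqcrc1 averaged 84.4 ± 4.61 FPKM in xHomo and 77.5 ± 8.44 FPKM in xHet embryos, and Uqcrc2 averaged 97.4 ± 10.5 FPKM in xHomo and 88.8 ± 9.79 FPKM in xHet embryos. The small subunits Uqcrq and Uqcr10 were more abundant, with 152 ± 18.0 FPKM and 168.5 ± 20.1 FPKM in xHomo embryos and 129.5 ± 11.2 FPKM and 143 ± 10.1 FPKM in xHet embryos. Each of these 4 overlapped between the groups, with log2 changes of 0.12 to 0.22. In complex II, Sdha, the flavoprotein, was highest in xHomo 5 with 95.45 FPKM and lowest in xHomo 9 with 69.64 FPKM, against 74.71, 68.8 and 65.66 FPKM in xHet 1, 2 and 3. So xHomo 9, where Ndufa4l2 and Cox4i2 were highest, had the lowest Sdha of the xHomo embryos, within the xHet range.

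In complex IV, Cox7a1 (chr7:30969190-30971049) had 5.01, 7.33 and 13.3 FPKM in the lowest, median and highest xHomo embryo, against 4.59, 5.09 and 5.16 FPKM in xHet 1, 2 and 3. Only xHomo 1 lay below the highest xHet embryo, and the log2 change was 0.53 ± 0.21 with a limma adjusted p of 0.510. Cox8a, the general form of a small membrane subunit (chr19:7289648-7292106), had 246, 309.6 and 345 FPKM in the lowest, median and highest xHomo embryo, against 269, 234 and 222 FPKM in the xHet embryos. Its log2 change was 0.29 ± 0.12 with a limma adjusted p of 0.518. Among abundant rows, the log2 change was 0.10 ± 0.11 for Cox4i1, 0.25 ± 0.13 for Cox7c and 0.13 ± 0.12 for Ndufa4. Cox4i1 moved to 0.20 without xHet 1, 0.04 without xHet 2, 0.07 without xHet 3 and -0.01 after quantile normalization. Ndufa4 moved to 0.25 without xHet 1, 0.04 without xHet 3 and 0.02 after quantile normalization, which also lowered Sdhc to 0.13, Uqcr11 to 0.08 and Cox8a to 0.15. Cox5a, the subunit that binds regulatory ligands on the matrix side, differed by 0.00 ± 0.11.

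**Figure D2:**
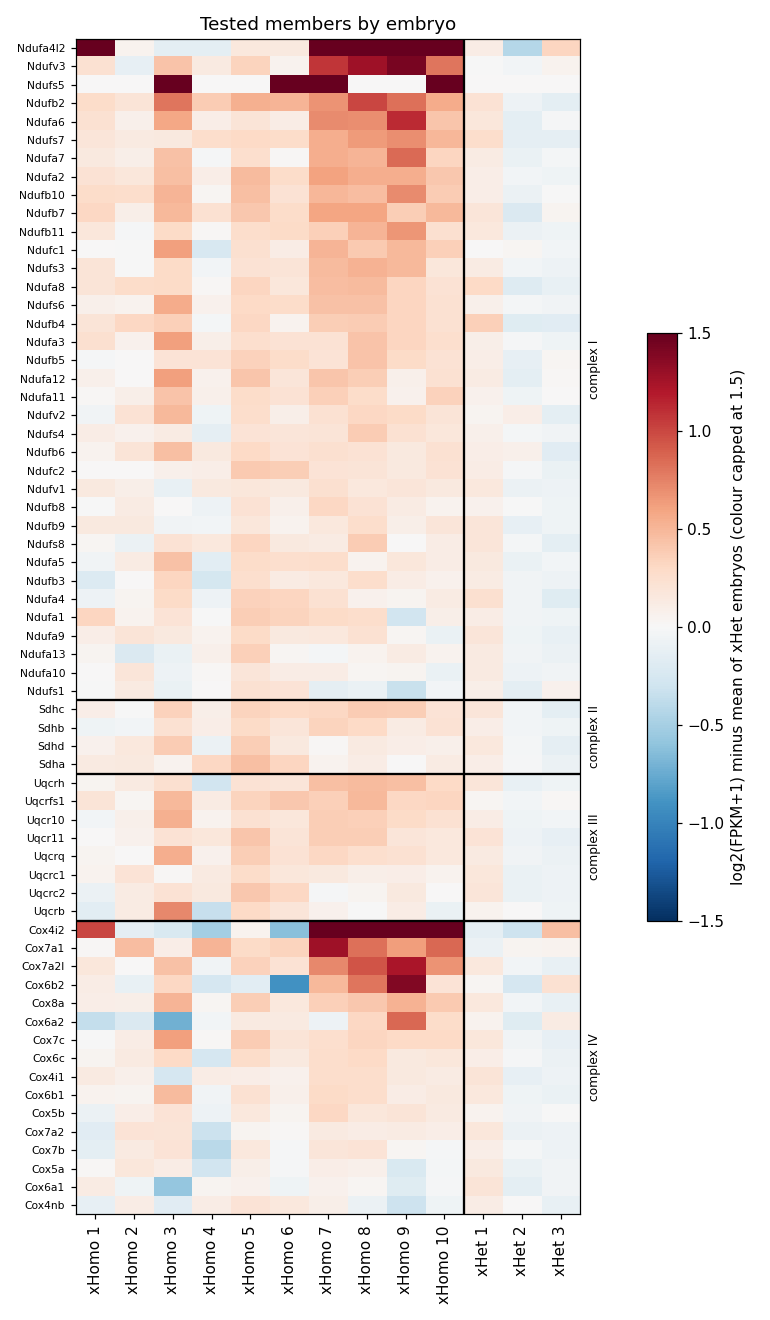
Log2 difference of the tested chain rows, without 1 that is not drawn, from the xHet mean, on log2(FPKM+1), with rows grouped by complex, 1 column per xHomo or xHet embryo and colours capped at 1.5. Ndufa4l2 and Cox4i2 pass the cap in xHomo 7, 8, 9 and 10, and Ndufs5, listed at 0 in all xHet embryos, passes it in xHomo 3, 6, 7 and 10. xHomo 3 holds both positive and negative cells.

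The lean was also set out by transcript length, at a cut chosen after the values were seen. Among tested chain rows, the 38 whose longest coding transcript has up to 1000 bases had a median log2 change of 0.22, and the 26 longer ones 0.16. The 437 other tested genes of that short length, without ribosomal proteins, had a median of 0.21, and all 10384 tested genes over 1000 bases had 0.04. The short chain rows had about the median of other short transcripts, while the longer chain rows lay above the median of all longer tested genes. The differences between these sets were not tested. Cytosolic ribosomal proteins, also short, were higher in xHomo embryos for 91 of 94 genes with a median of 0.34. The replication histones of the Hist1h clusters, most of whose mRNAs lack a poly(A) tail, were higher for 46 of 46 with a median of 0.53. In both lists 0 genes were called. The part of length, library composition and poly(A) selection in the lean was not tested.

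Embryo by embryo, the median difference of the 65 rows from the xHet mean was 0.06, 0.08, 0.29, 0.02, 0.27, 0.17, 0.29, 0.31, 0.18 and 0.20 log2 units in xHomo 1 to 10. It was 0.12, -0.06 and -0.06 in xHet 1, 2 and 3. The xHet 1 embryo therefore lay above xHomo 1, 2 and 4, and 61 of its 65 rows were above the xHet mean. Over all tested genes the median was lowest in xHomo 3, at -0.27, and ran from -0.0035 to 0.17 in the other xHomo embryos. The 437 other short genes had medians of 0.36, 0.38, 0.37 and 0.22 in xHomo 7, 8, 9 and 10, 0.03 to 0.25 in the other xHomo embryos and -0.05 to 0.11 in xHet embryos. Without xHomo 3 the median change of the chain rows was 0.18 with 0 rows called.

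**Figure D3:**
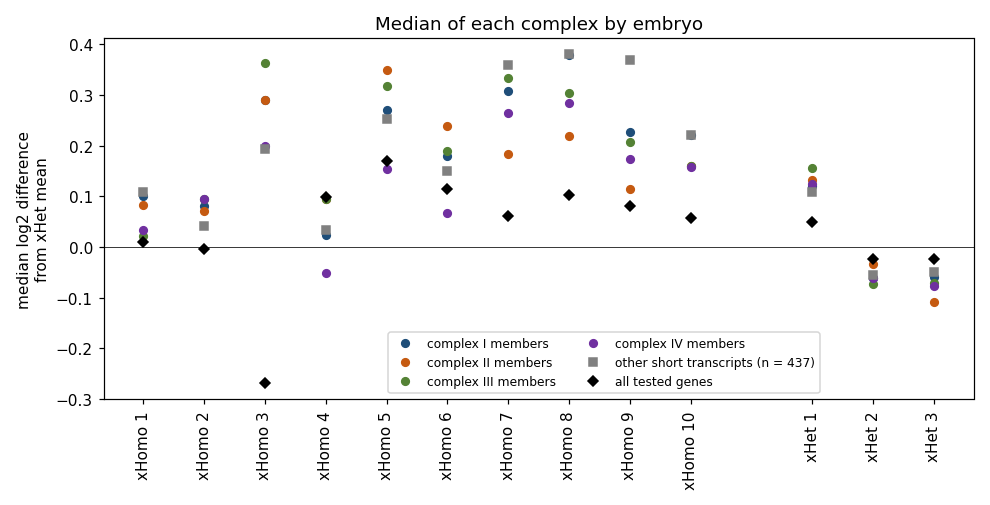
Median log2 difference from the xHet mean in each xHomo and xHet embryo, on log2(FPKM+1), for the tested rows of each complex, for the 437 other short genes and for all tested genes. The complexes lie between -0.05 and 0.38 in xHomo embryos, while all tested genes reach -0.27 in xHomo 3.

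The widest differences among xHomo embryos were in a handful of rows. The Ndufa4l2 row (chr10:126951995-126959500) had 12.16, 21.85, 50.79 and 11.14 FPKM in xHomo 7, 8, 9 and 10. It had 5.97 FPKM in xHomo 1, 1.23 to 1.75 FPKM in the other 5 xHomo embryos, and 1.67, 0.83 and 2.09 FPKM in xHet 1, 2 and 3. In all, 5 xHomo embryos were above all xHet embryos and the other 5 were within their range. The log2 change of the group was 1.39 ± 0.86 with a limma adjusted p of 0.611, and was 0.83 with an Xist covariate and 0.47 over embryos 1 to 3 of each group. Its locus also covers Shmt2, a serine metabolism gene with 73.53 to 101.82 FPKM in xHomo 7 to 10, 34.51 to 65.24 FPKM in the other xHomo embryos and 45.18 to 49.84 FPKM in xHet embryos. The Ndufa4l2 share of the pair with Ndufa4 reached 12.4% in xHomo 9, against 0.246% to 0.677% in xHet embryos.

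Cox4i2 (chr2:152579909-152590773), the partner of Cox4i1 known from lung and from cells at low oxygen, followed the same embryos. It had 16.84, 21.28, 38.81 and 14.86 FPKM in xHomo 7, 8, 9 and 10, 9.36 FPKM in xHomo 1 and 2.36 to 4.36 FPKM in the other 5, against 3.71, 3.17 and 6.05 FPKM in xHet 1, 2 and 3. Its log2 change was 0.80 ± 0.67 with a limma adjusted p of 0.719, and was 0.31 with an Xist covariate and 0.22 over embryos 1 to 3. Cox4i2 made up 6.66% of the pair in xHomo 9, against 0.656% to 1.28% in xHet embryos, while Cox4i1 itself had 411 to 590 FPKM in xHomo and 450 to 562 FPKM in xHet embryos. Cox6b2 was also highest in xHomo 9 with 43.16 FPKM and had 22.59 and 28.23 FPKM in xHomo 7 and 8, against 16.13, 13.15 and 18.64 FPKM in xHet embryos. Its 18.33 FPKM in xHomo 10 lay within the xHet range, and its log2 change was 0.19 ± 0.34, or -0.09 with an Xist covariate, 0.06 without xHet 2 and 0.05 without xHomo 9.

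Abundant rows took part as well. Ndufv3, a flavoprotein arm subunit of complex I (chr17:31657060-31668270), had 98.81, 113.45, 126.53 and 81.56 FPKM in xHomo 7, 8, 9 and 10 and 42.48 to 62.51 FPKM in the other 6. The xHet embryos had 46.18, 44.87 and 48.10 FPKM, so the first 4 lay well above all of them. The log2 change was 0.56 ± 0.29 with a limma adjusted p of 0.561, and was 0.18 over embryos 1 to 3. Cox7a2l (chr17:83901257-83913673) had 120.03, 140.25, 170.86 and 115.61 FPKM in those 4 embryos and 69.72 to 98.32 FPKM in the other 6, against 80.48, 70.06 and 66.93 FPKM in xHet embryos. Its log2 change was 0.47 ± 0.23 with a limma adjusted p of 0.544, and was 0.31 with an Xist covariate and 0.20 over embryos 1 to 3. Its paralogue Cox7a2 had 124 to 178 FPKM in xHomo embryos, so Cox7a2l made up 50.4% of that pair in xHomo 9, against 31.4% to 32.5% in xHet embryos. Ndufa6, an accessory subunit, reached 102.71 FPKM in xHomo 9 and had 42.19 to 52.61 FPKM in xHet embryos.

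The 6 rows Cox4i2, Cox7a1, Cox7a2l, Ndufa4l2, Ndufb2 and Ndufv3 lay at least 0.5 log2 units above the xHet mean in each of xHomo 7, 8, 9 and 10. They were 9.23% of the tested chain rows, while 267 genes (2.09%) did so over the whole table. Ndufb2 lay as far above in xHomo 3, 5 and 6 too, at 0.80, 0.53 and 0.51, and Cox7a1 in xHomo 4, at 0.51. Embryos xHomo 7 to 10 were picked after their values were seen, so the counts are a description. A list of 14 well known targets of hypoxia inducible factors, drawn up after values were seen, had medians of 1.47, 1.46, 1.76 and 1.32 in xHomo 7, 8, 9 and 10, as log2 differences from the xHet mean. Their median was 0.61 in xHomo 1, -0.25 to 0.03 in the other 5, and -0.16, -0.20 and 0.33 in the xHet embryos. The 5 embryos with target medians above that of every xHet embryo were those in which Ndufa4l2 and Cox4i2 exceeded all xHet embryos. Ddit4, a stress response gene, had 108.68, 95.44, 176.67 and 101 FPKM in xHomo 7 to 10 and 10.5 to 21.72 FPKM in xHet embryos. Hk2, a hexokinase, had 46.25 to 50.67 FPKM in xHomo 7 to 10 and 15.77 to 20.49 FPKM in xHet embryos. All 14 targets had higher means in xHomo embryos with 0 called.

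Some other markers moved in these embryos too. Heart markers had medians of 0.48, 0.46, 0.54 and 0.55 log2 units in xHomo 7, 8, 9 and 10, at most 0.19 in the other xHomo embryos and -0.03 to 0.03 in xHet embryos. Their summed level was 701 to 1233 FPKM in xHomo and 735 to 784 FPKM in xHet embryos, and 10 of 12 had higher means in xHomo embryos. Endothelial markers summed to 120 to 123 FPKM in xHomo 7 to 10, 56.4 FPKM in xHomo 3, 122 to 152 FPKM in the other xHomo embryos, and 147 to 157 FPKM in xHet embryos. Not all of them were lower: Flt1 had 5.89 to 6.40 FPKM in xHomo 7 to 10 and 4.88 to 5.75 FPKM in xHet embryos. Pecam1 had 17.4, 20.0, 20.38 and 16.58 FPKM, against 17.49 to 19.08 FPKM. Red cell medians were 0.38, -0.12, -0.03 and -0.07 in xHomo 7 to 10 and -0.88 to 0.47 in the other xHomo embryos. Neural medians were 0.07, 0.43, 0.23 and 0.04, against -0.42 to 0.69. Cytosolic ribosomal proteins had medians of 0.58, 0.64, 0.86 and 0.36 in xHomo 7, 8, 9 and 10. Their median was 0.48 in xHomo 3, above that of xHomo 10. It was -0.12 to 0.26 in the other xHomo embryos and -0.07 to 0.13 in xHet embryos. The imprinted gene Peg10 had 0.01 to 4.19 FPKM in xHomo 7 to 10 and 0.03 FPKM in xHomo 1, 66.82 to 126.9 FPKM in the other 5, and 57.77 to 99.77 FPKM in xHet embryos. The part of hypoxia targets, heart tissue, ribosomal proteins and Peg10 in the values of the chain rows was not tested. Xist was expressed in xHomo 7, 9 and 10, and in xHomo 2 and 3, and was at most 0.1 FPKM in xHomo 1 and 8 and in all xHet embryos. It was used only as a covariate, and its own part was not tested. The slope of that covariate rests almost wholly on xHomo embryos, so values with it are no clean adjustment for sex.

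**Figure D4:**
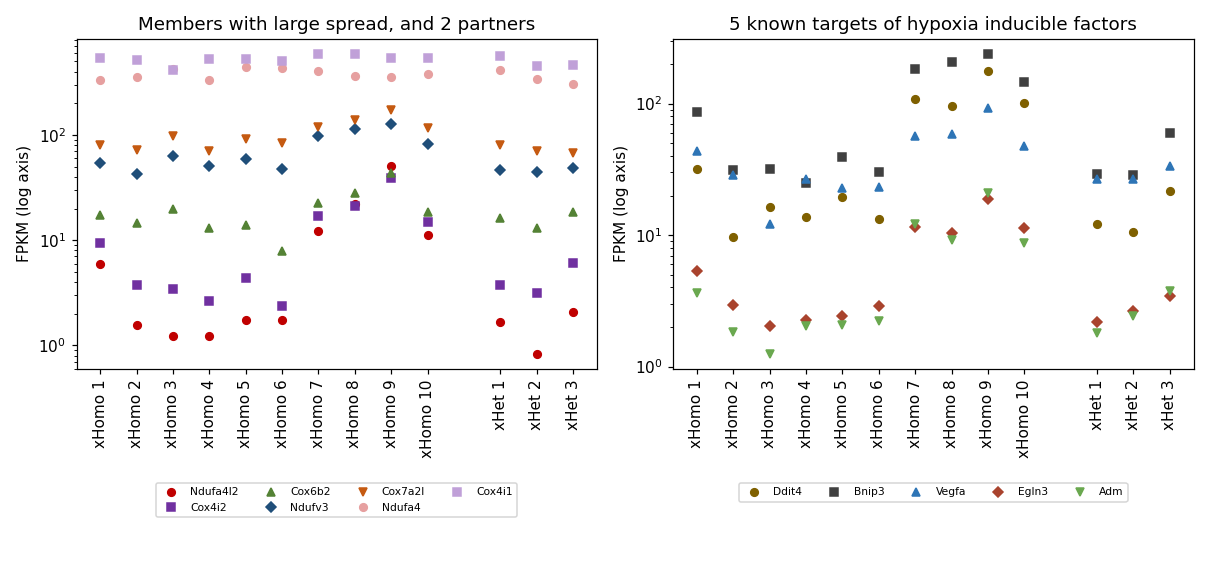
FPKM on a log axis in each xHomo and xHet embryo of 5 chain rows with wide spread and the partners Ndufa4 and Cox4i1 (left), and of 5 known targets of hypoxia inducible factors (right). Ndufa4l2, Cox4i2, Ndufv3 and Cox7a2l and the 5 targets are highest in xHomo 7 to 10, while Ndufa4 and Cox4i1 are not set apart there.

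Embryo xHomo 3 had a pattern of its own. There 13 chain rows lay at least 0.5 log2 units above the xHet mean and 2 lay as far below, while 3.10% of all tested genes were as far above and 32.2% as far below. The median of all tested genes over 1000 bases was -0.29 in xHomo 3, that of the 437 other short genes 0.19 and that of the endothelial markers -1.37. The part of length and of endothelial tissue in the chain values there was not tested. Uqcrb, a small subunit of complex III, had 273.89 FPKM in xHomo 3, 130.79 to 204.2 FPKM in the other xHomo embryos and 158.63 to 172.54 FPKM in xHet embryos. Cox6a1 had its lowest value there, 286.2 FPKM, against 378 to 467 FPKM in the other xHomo embryos and 389.52 to 492.69 FPKM in xHet embryos. Ndufs5, a soluble accessory subunit of complex I, was listed at 0 in 6 xHomo and all 3 xHet embryos. It had 19.67, 6.15, 2.78 and 1.98 FPKM in xHomo 3, 6, 7 and 10. No fold is given, since each 0 can be a failed estimate.

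Lists of related genes differed in how far they shared the lean, and 0 genes were called in any of them. The ATP synthase, which uses the proton gradient, had 18 of 18 genes higher in xHomo embryos with a median log2 change of 0.24. Atp5a1, the alpha subunit of its F1 part, averaged 308 ± 24.9 FPKM in xHomo and 260 ± 21.4 FPKM in xHet embryos, with a limma adjusted p of 0.509. Mitochondrial ribosomal proteins had 64 of 76 genes higher and a median of 0.12. Assembly factors of the chain had 15 of 27 higher and a median of 0.01. Cox17, a copper chaperone of complex IV, averaged 65.8 ± 12.6 FPKM in xHomo and 52.7 ± 3.28 FPKM in xHet embryos, with an adjusted p of 0.575 in limma. Foxred1, an assembly factor of complex I, averaged 14.2 ± 1.66 FPKM in xHomo and 17.3 ± 2.94 FPKM in xHet embryos, with an adjusted p of 0.520 in limma.

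Enzymes of the citric acid cycle had 7 of 13 genes higher and a median of 0.06. Suclg2, a subunit of a succinyl-CoA ligase, averaged 34.1 ± 4.41 FPKM in xHomo and 26.1 ± 0.631 FPKM in xHet embryos, with an adjusted p of 0.449 in limma. Regulators of mitochondrial genes, among them Nrf1, Gabpa and Tfam, had 8 of 14 higher and a median of 0.01. Tfam, which packages mitochondrial DNA, averaged 20.5 ± 1.92 FPKM in xHomo and 19.2 ± 1.02 FPKM in xHet embryos. Of 5 tested subunits and partners outside the rule, 3 were higher and the median was 0.05. One of them, Higd1a, a supercomplex factor known to be induced at low oxygen, had 51.98, 60.48, 56.33 and 43.8 FPKM in xHomo 7, 8, 9 and 10 and 17.08 to 29.64 FPKM in the other xHomo embryos. The xHet embryos had 19.12 to 23.06 FPKM, below all 4.

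Promoters of the chain are known for sites of nuclear respiratory factor 1 (NRF1), GABP, YY1 and estrogen-related receptors. RefSeq windows of 300 bases on GRCm38.p6, from 250 bases before the start, were matched to 53 of the 68 rows. Both strands were searched. The NRF1 letters, GCGCA, then any base, then GCGC, were in 20.8% of these windows, against 5.19% over all 27025 genes with a window. The ETS core bound by GABP, CCGGAAG, was in 20.8% of chain windows, against 9.93% of all. The YY1 core AAGATGGCG was in 9.43%, against 1.64% of all, and the estrogen-related receptor letters TCAAGGTCA were in 1.89%, which is Sdhd alone, against 0.466% of all. The core letters of hypoxia inducible factor sites, ACGTG and GCGTG, were in 20.8% and 52.8% of chain windows, against 21.8% and 35.2% of all. GCGTG can lie inside the NRF1 letters, and a match is a description of letters only. The 27025 genes were not limited to those tested for expression, and the base composition of the windows was not compared.

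The windows of 2 of the rows that were high in xHomo 7 to 10, Ndufv3 and Cox7a2l, are shown with those of Cox6a1 and Sdhd, which hold both NRF1 and GABP letters. Capitals mark matches to any of the 6 letter sets on either strand. Ndufv3 is chr17:31519865-31520164, plus strand, and Cox7a2l is chr17:83514284-83514583, minus strand. Cox6a1 is chr5:115348909-115349208, minus strand, and Sdhd is chr9:50603800-50604099, minus strand.
Ndufv3: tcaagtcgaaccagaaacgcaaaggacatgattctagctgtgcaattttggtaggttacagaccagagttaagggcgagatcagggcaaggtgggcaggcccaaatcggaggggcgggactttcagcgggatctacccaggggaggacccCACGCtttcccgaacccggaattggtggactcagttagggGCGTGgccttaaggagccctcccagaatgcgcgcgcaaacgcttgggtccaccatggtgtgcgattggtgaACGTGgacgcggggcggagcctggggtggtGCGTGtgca
Cox7a2l: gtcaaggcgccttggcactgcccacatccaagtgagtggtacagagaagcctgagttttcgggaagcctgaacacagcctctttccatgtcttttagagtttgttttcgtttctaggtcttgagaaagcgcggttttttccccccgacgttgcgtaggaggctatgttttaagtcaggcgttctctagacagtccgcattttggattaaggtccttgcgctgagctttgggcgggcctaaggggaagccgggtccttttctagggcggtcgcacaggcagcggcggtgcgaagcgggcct
Cox6a1: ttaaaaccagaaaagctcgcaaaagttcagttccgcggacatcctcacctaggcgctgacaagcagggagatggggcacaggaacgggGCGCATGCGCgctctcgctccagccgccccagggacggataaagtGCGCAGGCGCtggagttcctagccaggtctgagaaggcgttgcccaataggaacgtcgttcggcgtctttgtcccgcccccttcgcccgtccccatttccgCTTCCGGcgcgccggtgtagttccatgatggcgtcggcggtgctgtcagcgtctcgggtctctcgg
Sdhd: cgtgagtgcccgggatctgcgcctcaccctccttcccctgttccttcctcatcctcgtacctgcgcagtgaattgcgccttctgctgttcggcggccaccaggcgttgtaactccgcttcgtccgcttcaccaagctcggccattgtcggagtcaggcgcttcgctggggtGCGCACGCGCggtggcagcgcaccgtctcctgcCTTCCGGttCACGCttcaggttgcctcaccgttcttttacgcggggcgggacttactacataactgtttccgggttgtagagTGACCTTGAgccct

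The Ndufv3 window held 1 ACGTG and 3 GCGTG matches and none of the NRF1, GABP, YY1 or estrogen-related receptor letters. The Cox7a2l window held none of the 6 sets of letters. The window of Ndufa6, not shown, held 1 NRF1 and 2 GCGTG matches, and Ndufa4l2 and Cox4i2 had no matched window. The part of these letters in the values by embryo was not tested. Cox6a1 held 2 NRF1 matches and 1 GABP match, and Sdhd held 1 NRF1, 1 GABP and 1 estrogen-related receptor match and 2 GCGTG matches, of which 1 lies inside the NRF1 letters. Sdhd averaged 80.0 ± 8.33 FPKM in xHomo and 72.6 ± 7.74 FPKM in xHet embryos, with a log2 change of 0.14 ± 0.10.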

How the data were processed

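Polyadenylated RNA of 13 whole embryos was measured after RNeasy extraction with DNase and directional NEBNext Ultra libraries, per the labels' protocols. FPKM values for each gene and embryo, with loci on mm9, are the authors' deposited table. The submitters' processing notes name TopHat, Cufflinks and bcl2fastq 1.8.2. Which annotation, filters or strand setting the authors used is not given in the sources. FPKM shifts with a few abundant RNAs and is least certain for short or low transcripts, and depth is unknown, so no counting interval is given.

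Embryos were grouped by their xHomo or xHet label. Genes with a mean of at least 1 FPKM (12755) were tested on log2(FPKM+1) in R 4.3.3 by the two-sided moderated test of limma 3.58.1, with trended eBayes and no covariates, and with Benjamini-Hochberg adjustment over all of them. Changes are xHomo minus xHet on that scale and understate those of low genes. The step was tested on simulated data. Loci were converted to 1-based starts. Lengths are the longest coding transcript of the symbol in GENCODE M21, found for 64 of the 65 tested rows. Rows sharing a locus with other genes are uncertain. Besides those named above, these are Ndufb11 with Rbm10, Uqcrc2 with Pdzd9, Ndufs1 with Gm11602 and Ndufa13 with Tssk6.

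The members and lists were chosen with earlier results of these data known, and the hypoxia list, the length split and the hypoxia letters in promoters after seeing these values. Values by embryo are given for members with the highest mean or the 2 smallest p of a complex, the 6 with the largest SD among xHomo embryos and paralogue forms, and related lists by their 2 smallest p. Others named, such as Cox7c, Ndufa6, Uqcrb, Shmt2 and Peg10, were chosen after their values were seen. Alternatives changed the pseudocount, filter, scaling, covariates and embryos used. Same-numbered embryos of the groups had deviations correlated at -0.07, -0.04 and -0.04, so numbers were not used to pair them. The highest correlation of each xHet embryo with any xHomo embryo was 0.10 to 0.12, so this measure cannot exclude a pairing. Python 3.11.15, numpy 2.4.6, pandas 2.3.3, scipy 1.17.1 and matplotlib 3.10.9 were used. A single member is counted in the totals and medians and is not reported here by itself.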

Additional observations from a re-analysis of the deposited data

Results flagged for a closer look

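Dixon's test at its 95% critical value of 0.466 was applied to log2(FPKM+1) in the 10 xHomo embryos, over 70 sets of values (the 65 tested chain rows and the medians of the chain and of each complex), and chance flags about 1 in 20. It marked 4 rows. Cox4i1 was lowest in xHomo 3, at 411.46 FPKM with a gap of 0.596 of the range. Cox6a1 was lowest in xHomo 3, at 286.2 FPKM with a gap of 0.569. Ndufv1, the flavin subunit of complex I, was lowest in xHomo 3, at 47.77 FPKM with a gap of 0.564. Cox6c, a subunit of complex IV, was lowest in xHomo 4, at 261.22 FPKM with a gap of 0.531. In 3 of the 4 the embryo is the one in which the median of all tested genes was lowest.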

How the results depend on the processing

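Of 170 counts and medians over 25 alternatives, 17 shifted most within their kind, and the other 153 shifted less but were not all close. Among these 153, the median of complex IV was 0.13 in the main test. It was 0.06 with TPM rescaling, 0.07 without xHet 2, 0.08 with an Xist covariate and 0.20 without xHet 1. The median of complex II was 0.17 in the main test and 0.09 with TPM rescaling. The count of genes called was 3. It was 5 with TPM rescaling, 1 with an Xist covariate, 2779 with array weights, 1 with a minimum mean of 5 FPKM, 11 without a filter, 5 after quantile normalization and 0 by the exact permutation test. Leaving out 1 embryo gave 1 to 11 (11 without xHomo 3, 5 without xHomo 2, 1 without xHet 2 or xHet 3). Chain rows called were 36 with array weights and 0 in all other alternatives run. With a replicate block over embryos 1 to 3, 1 gene and 0 chain rows were called, and the median of the chain rows was 0.16. The same embryos without the block, chosen after seeing the data, gave 2 genes and also 0.16. Quantile normalization brought the medians to 0.0874 for all chain rows, 0.0644 for complex II, 0.0751 for complex III and 0.0191 for complex IV. Over embryos left out in turn, the median of the chain rows was 0.135 to 0.247.

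Some named rows reversed. With TPM rescaling Cox6a2 was at -0.0446, Cox7a2 at -0.0359 and Cox7b at -0.0442. With the Xist covariate Cox6b2, at 0.187 without it, was at -0.0950, Cox6a2 at -0.0207, Cox6a1 at 0.0101, Cox7a2 at -0.0582 and Cox7b at -0.0317. Array weights gave Cox6a1 0.0603. Embryos 1 to 3, with or without the replicate block, gave Cox4i1 -0.0127 and Cox6a2 -0.43. Median-of-ratios scaling gave Cox6a2 -0.0077 and Cox7b -0.0061. Quantile normalization gave Cox4i1 -0.0077, Cox7a2 -0.10 and Cox7b -0.0440. Over embryos left out in turn, Cox6a2 ran from -0.0619 to 0.114, Cox6a1 from -0.130 to 0.0391, Cox7a2 from -0.0042 to 0.128 and Cox7b from -0.0055 to 0.0854. The cause of these shifts was not tested. Depth is unknown, so no limit from counts is given for low rows such as Cox8b.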
